A study of Mus musculus with 8 samples.

Results

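Histone deacetylases remove acetyl groups from lysines, and the 10 genes described here, Hdac1, Hdac2, Hdac3, Hdac5, Hdac6, Sirt1, Sirt2, Sirt3, Sirt6 and Sirt7, encode enzymes of 2 chemical kinds. They were chosen by gene symbol from a matrix of 38924 mouse genes, and all 10 were present, each on 1 row. The diapaused inner cell mass (dICM, 3 libraries) came from blastocysts arrested by tamoxifen and 0.5 mg of Depo Provera, given on day 3.5 and followed by collection 5 days later. The post-implantation epiblast (Epi, 2 libraries) came from embryos at day 6.5, and the inner cell mass (ICM, 3 libraries) came from blastocysts at day 3.5 without that treatment. Both kinds of blastocyst were flushed from superovulated females. Every library was a pool of about 50 C57BL/6 embryos, labelled as a biological replicate, and its RNA was amplified before sequencing because the amounts were small. The outer trophectoderm of the blastocysts had been lysed with antibody and complement, a step that did not apply to the epiblast. Because each pool mixes cells, fewer cells of a type and less RNA per cell cannot be told apart in any value below.

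The zinc-dependent enzymes fall into class I (Hdac1, Hdac2, Hdac3), which are mostly nuclear and act inside large corepressor complexes, and class II (Hdac5, Hdac6), which move between nucleus and cytoplasm or stay in the cytoplasm. The sirtuins use NAD as a co-substrate, so that their activity is tied to the metabolic state of the cell. Hdac1 is known to be needed for growth of the mouse embryo, and in mouse embryonic stem cells Sirt6 is known to act on chromatin at core pluripotency genes. Transcript levels are given in the authors' adjusted TPM, a length-scaled abundance that the authors adjusted further, and fold changes are on the scale of log2(adjusted TPM + 1), which understates the change of genes at low values. A change was called where limma's moderated test, adjusted by Benjamini-Hochberg over the 17698 genes tested, gave a p under 0.05.

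In epiblast against ICM, 2 of the 10 genes passed the test, with Hdac2 higher and Sirt6 lower, where 30.1% of all genes tested were called, 16.7% higher and 13.3% lower. In dICM against ICM, Hdac5 alone passed, as a higher value and only with the filter on low values, where 13.3% of all genes were called, 7.52% higher and 5.81% lower. In dICM against epiblast, 4 passed, with Sirt2 and Sirt6 higher and Hdac1 and Hdac2 lower, where 34.5% of all genes were called, 16% higher and 18.6% lower. The median log2 fold change over the 10 genes was -0.02 in epiblast against ICM, 0.28 in dICM against ICM and 0.56 in dICM against epiblast, beside medians over all genes tested of 0.14, 0.00 and -0.11. The shares called among the 10 genes therefore lay near those of all genes, and what follows describes single genes. All 3 comparisons draw on the same 8 libraries, so those that share a group are not independent of each other.

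**Figure D1:**
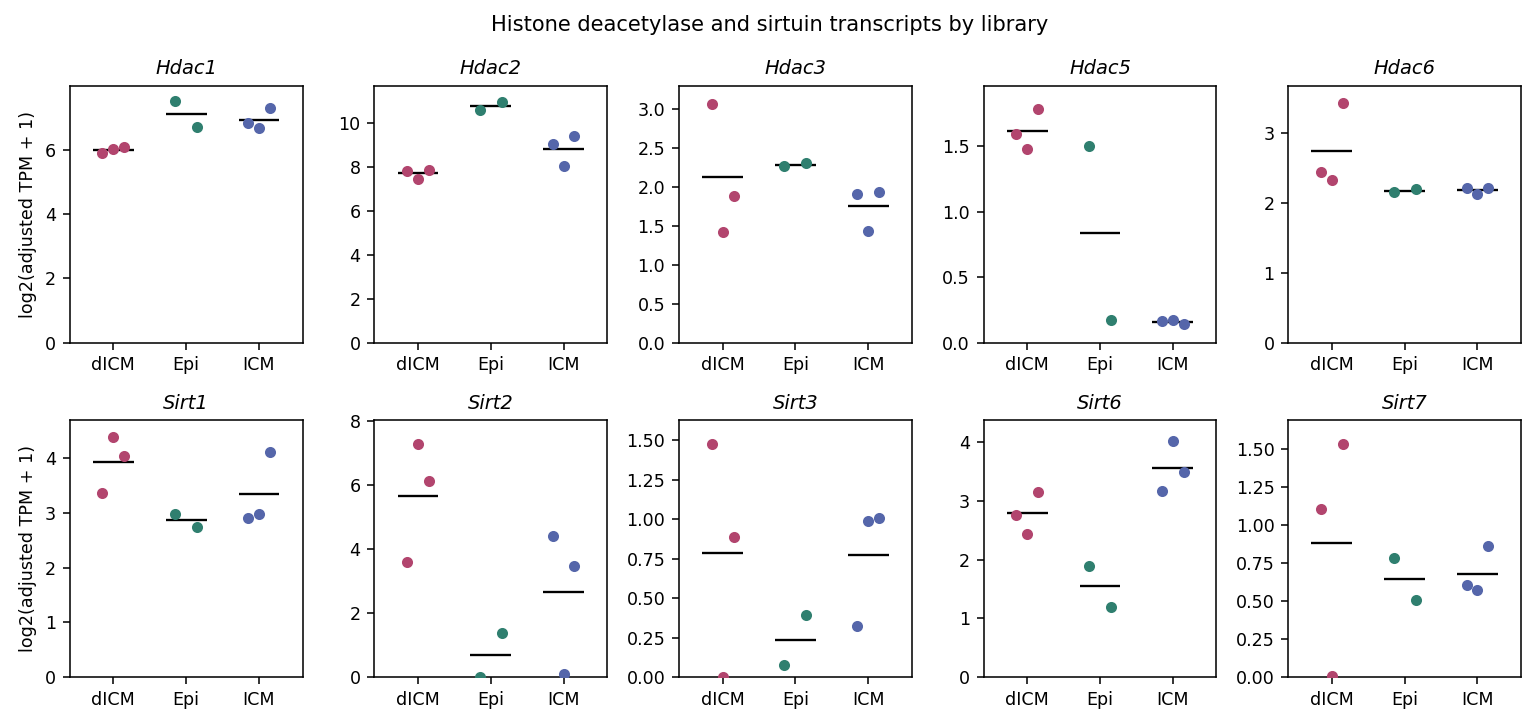
Transcript level of each of the 10 genes in every library, on log2(adjusted TPM + 1), with dICM, Epi and ICM from left to right in each panel. Points are libraries, black bars are group means, and each panel has its own vertical scale. Hdac2 sits highest in both Epi libraries, Sirt6 sits lowest in them, and the Sirt2 points spread widely within dICM and ICM.

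Before the single genes, the labelled cell types were checked against fixed markers. The summed level of 10 pluripotency markers of the ICM was 433 to 449 adjusted TPM in dICM, 144 to 166 in epiblast and 1515 to 1729 in ICM. Most of the ICM sum was Dppa3, at 987 to 1361 in ICM and 44.2 to 59.6 in dICM. Of the 10 markers, 1 was called lower in dICM against ICM, and their median log2 fold change was -0.19. The sum of 9 markers of primed epiblast was 10.9 to 23.4 in dICM, 334 to 669 in epiblast and 24.2 to 37.2 in ICM. Of the primed markers, Fgf5 was at 68.9 and 145 in epiblast and under 1 in every dICM library. Fgf8 and Nodal stayed under 1 in epiblast, and Nodal was at 1.66 in dICM replicate 3. The 9 primitive endoderm markers summed to 210 to 346 in dICM, 15.1 to 27.4 in epiblast and 67.8 to 84.1 in ICM, the 8 visceral endoderm markers to 562 to 578, 305 to 417 and 25.6 to 36.4, and the 10 trophectoderm markers to 54.0 to 185, 58.1 to 66.7 and 41.0 to 59.7. Most of the visceral endoderm sum was Rhox5 in every group, at 552 to 568 in dICM, 284 and 353 in epiblast and 21.1 to 29.6 in ICM. Afp, a defining marker, was near 0 in dICM and ICM and at 0.651 and 1.13 in epiblast. Ttr was at 6.33 and 39.7 in epiblast and under 1 in the other libraries. The 6 blood and immune markers in the file, mostly Cd68 and Laptm5, summed to 47.3 to 134 in dICM, 2.33 to 4.08 in epiblast and 5.00 to 10.1 in ICM, while the defining markers Ptprc, Tyrobp and Lyz2 were under 1 in every library. The 6 uterine markers summed to 5.18 to 12.9 in dICM, 5.53 to 7.61 in epiblast and 5.06 to 19.4 in ICM. These markers move with the groups, and their part in the values below was not tested.

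Hdac2, a class I catalytic subunit of the Sin3, NuRD and CoREST corepressor complexes, was the most abundant of the 10 in all 3 groups. In dICM against epiblast it had the smallest adjusted p of the 10. Its promoter window is shown because it belongs to the gene with the largest epiblast level of the 10. The window covers 250 bases before and 50 bases after the RefSeq start, at chr10:36974294-36974593 of GRCm38.p6 on the plus strand, printed 5′ to 3′ with matches to 3 short motifs in capitals. It held 1 match to the GC box GGGCGG, counted on both strands, a motif found in 35.7% of the 32851 mouse promoter windows of the same length, and its 36 CpG dinucleotides compare with a median of 7 over those windows.
Hdac2 promoter: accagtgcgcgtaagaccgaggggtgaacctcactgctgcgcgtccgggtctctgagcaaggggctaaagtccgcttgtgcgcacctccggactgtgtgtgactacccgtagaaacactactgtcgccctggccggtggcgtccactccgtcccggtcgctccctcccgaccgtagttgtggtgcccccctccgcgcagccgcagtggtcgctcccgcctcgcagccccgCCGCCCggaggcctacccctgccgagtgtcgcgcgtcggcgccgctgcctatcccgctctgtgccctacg

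Hdac2 was at 227, 172 and 227 adjusted TPM in the 3 dICM libraries, at 1557 and 1977 in the 2 epiblast libraries and at 522, 262 and 680 in the 3 ICM libraries. The 3 groups did not overlap, with epiblast highest and dICM lowest. It rose in epiblast over ICM by 1.95 ± 0.38 on the log2 scale (SE, limma adjusted p = 0.0061) and was lower in dICM than in epiblast by a log2 fold change of -3.08 ± 0.38 (adjusted p = 0.00056). The second of these calls held under each of the 17 alternatives tried, and the first ended only without epiblast replicate 2, at an adjusted p of 0.0585. Between dICM and ICM the log2 fold change was -1.13 ± 0.34, with every dICM library under every ICM library, and the adjusted p of 0.0618 missed the threshold. Without ICM replicate 2, the lowest ICM library, the adjusted p of that last comparison was 0.00706.

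Hdac1, the paralog of Hdac2 that works in the same complexes, was at 58.4, 64.1 and 67.7 adjusted TPM in dICM, at 184 and 105 in epiblast and at 114, 102 and 158 in ICM. All 3 dICM libraries lay below all 5 others, while epiblast and ICM overlapped. It was lower in dICM than in epiblast by a log2 fold change of -1.12 ± 0.30 (SE, limma adjusted p = 0.0211). That call ended without epiblast replicate 1, where the log2 fold change was -0.72 and the adjusted p 0.161, and also without dICM replicate 1 (0.0526) and with no filter on low values (0.0552). The log2 fold change of -0.94 ± 0.27 in dICM against ICM gave an adjusted p of 0.0533. It passed without epiblast replicate 1 (0.0447) or replicate 2 (0.0448), which changes the shared spread and not the ICM and dICM values. In epiblast against ICM the fold change was 0.19, with a 95% interval from -0.50 to 0.87, and it reversed to -0.22 without epiblast replicate 1.

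A limit specific to Hdac1 is a near-identical copy in the genome. In the GENCODE vM21 transcripts the processed pseudogene Gm10093 matched Hdac1 at 99.4% of 1444 aligned bases, and it is listed at 41.6, 36.8 and 41.6 adjusted TPM in dICM, 75.9 and 37.7 in epiblast and 74.0, 62.7 and 83.5 in ICM. The ratio of Hdac1 to this copy was 1.40 to 1.74 in dICM, 2.42 and 2.79 in epiblast and 1.54 to 1.89 in ICM. No source used here says how reads were shared between these rows, so the Hdac1 level is uncertain. With both rows summed, a choice made after the data were seen, the epiblast to ICM log2 fold change of Hdac1 became -0.02. That of dICM against ICM became -0.91. Less similar copies included the processed pseudogenes AC125456.1, at 96.3% of 1450 aligned bases, and Gm4864, at 94.6% of 1469. Neither has a row in the matrix.

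The balance between the 2 paralogs was therefore described within each library. The ratio of Hdac2 to Hdac1, both in adjusted TPM, was 2.68 to 3.88 in dICM, 8.47 and 18.8 in epiblast and 2.58 to 4.60 in ICM. The dICM and ICM ranges overlapped and both epiblast values were above them. With the copy added to Hdac1, the ratio was 1.70 to 2.27 in dICM, 5.99 and 13.8 in epiblast and 1.60 to 2.82 in ICM, in the same order. Hdac1 and Hdac2 together made up 56.1% to 86.9% of the summed level of the 10 genes in dICM, 98.9% and 99.2% in epiblast and 92.7% to 94.9% in ICM. The lowest of these shares, in dICM replicate 2, was the library with the highest Sirt2 value.

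**Figure D2:**
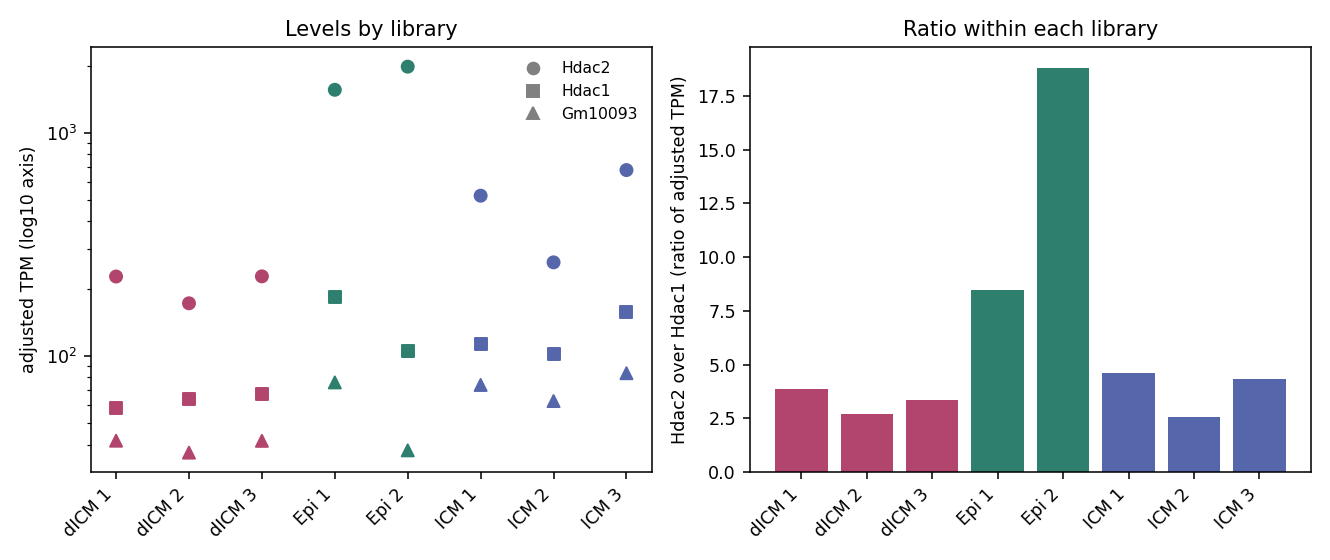
Left, levels of Hdac2 (circles), Hdac1 (squares) and the pseudogene copy Gm10093 (triangles) in each library, on a log10 axis of adjusted TPM. Right, the ratio of Hdac2 to Hdac1 within each library, as bars from 0. The ratio reaches 8.47 and 18.8 in the 2 Epi libraries and is at most 4.60 in the other 6.

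Hdac3, the class I enzyme of the NCoR and SMRT complexes, was at 7.34, 1.68 and 2.69 adjusted TPM in dICM, at 3.80 and 3.95 in epiblast and at 2.75, 1.70 and 2.81 in ICM. Both epiblast values exceeded all ICM values, and the dICM libraries spread across both. No comparison passed the test, with log2 fold changes of 0.53 in epiblast against ICM (95% interval -0.44 to 1.50), 0.37 in dICM against ICM (-0.50 to 1.24) and -0.16 in dICM against epiblast (-1.14 to 0.81). These intervals include changes of over 1 on the log2 scale. The sum of the 3 class I genes was 238 to 297 adjusted TPM in dICM, 1745 and 2086 in epiblast and 366 to 840 in ICM, and followed Hdac2.

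Hdac5, a class IIa enzyme that binds Mef2 factors and is held in the cytoplasm by 14-3-3 proteins once phosphorylated, was the only member called in dICM against ICM. Its promoter window is shown for that reason, at chr11:102230123-102230422 of GRCm38.p6 on the minus strand. It held 1 match to the E-box CACGTG, which occurred in 7.15% of all promoter windows, 1 to the GC box and 2 to the CCAAT box CCAAT, which occurred in 37.4%. Matches on either strand are in capitals and none overlapped another. These matches are letters in a window and are not sites measured here.
Hdac5 promoter: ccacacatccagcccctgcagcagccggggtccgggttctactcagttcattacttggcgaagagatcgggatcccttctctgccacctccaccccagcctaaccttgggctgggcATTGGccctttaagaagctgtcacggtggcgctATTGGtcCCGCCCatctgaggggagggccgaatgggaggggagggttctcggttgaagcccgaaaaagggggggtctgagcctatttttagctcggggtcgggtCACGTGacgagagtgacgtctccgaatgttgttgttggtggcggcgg

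Hdac5 was at 2.02, 1.79 and 2.45 adjusted TPM in dICM, at 1.83 and 0.129 in epiblast and at 0.121, 0.126 and 0.102 in ICM. All dICM libraries were above all ICM libraries, and the 2 epiblast libraries stood apart, 1 at the dICM level and 1 at the ICM level. The gene reached 1 in no ICM library, so it entered the test only through the groups where it was high, and its call is no independent support for a difference. The log2 fold change in dICM against ICM was 1.46 ± 0.34 (SE, limma adjusted p = 0.0232), and 3.33 with a pseudocount of 0.1. The adjusted p was 0.105 with no filter on low values, and 0.057 to 0.0702 without ICM replicate 1, ICM replicate 3, dICM replicate 1 or dICM replicate 3. Against ICM the epiblast fold change was 0.68 ± 0.38 (adjusted p = 0.206) and against epiblast the dICM fold change was 0.78 ± 0.38 (adjusted p = 0.14). Without epiblast replicate 2 the first of these passed at 0.021, and without epiblast replicate 1 the second passed at 0.0202.

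Hdac6, a cytoplasmic class IIb enzyme whose substrates include tubulin, Hsp90 and cortactin, was at 4.47, 4.06 and 9.87 adjusted TPM in dICM, at 3.47 and 3.60 in epiblast and at 3.67, 3.36 and 3.67 in ICM. The 5 epiblast and ICM libraries lay between 3.36 and 3.67, and all dICM libraries were above them. The fold change of 0.55 ± 0.29 in dICM against ICM (SE, limma adjusted p = 0.262) and that of 0.56 ± 0.32 against epiblast (adjusted p = 0.204) missed the threshold. In dICM replicate 3, the highest Hdac6 library, the trophectoderm markers Krt8 and Krt18 were at 17.6 and 121 adjusted TPM, against at most 4.42 and 17.5 in the other dICM libraries. Not every trophectoderm marker peaked there. Tead4 was at 8.11 in that library and 10.6 in dICM replicate 1, and Cdx2 was under 1 in every dICM library. The part of trophectoderm cells in the Hdac6 value of dICM replicate 3 was not tested. Without that library the fold change against ICM was 0.20.

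Groups that do not overlap were frequent in this data set and are no test. In epiblast against ICM, 3 of the 10 genes were higher and 1 was lower without overlap, where 59% of all genes tested did not overlap, 33.9% higher and 25% lower. In dICM against ICM, 2 were higher and 3 lower, where 30.7% of all genes did not overlap, 16.4% higher and 14.4% lower. In dICM against epiblast, 4 were higher and 2 lower, where 61.4% of all genes did not overlap, 27.3% higher and 34.1% lower.

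**Figure D3:**
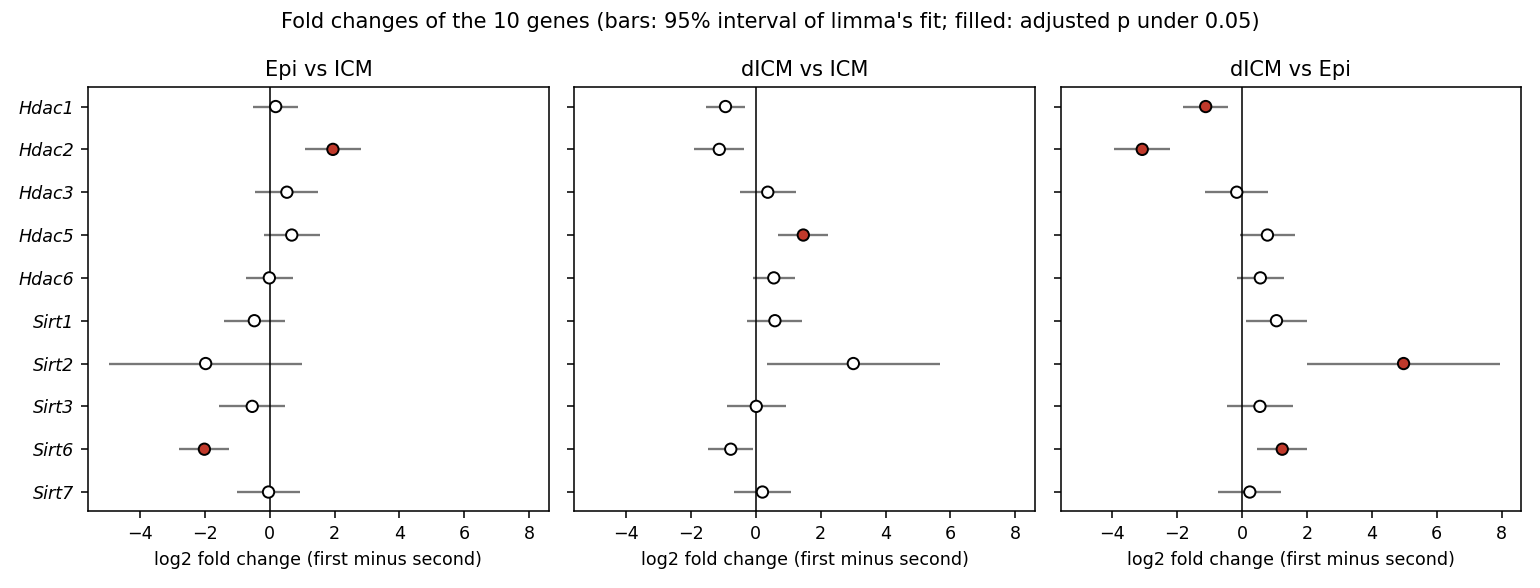
Log2 fold change of each of the 10 genes in epiblast against ICM, dICM against ICM and dICM against epiblast, on log2(adjusted TPM + 1), with the 95% interval of limma's fit. Filled points have an adjusted p under 0.05. Hdac2 and Sirt6 move in opposite directions in the epiblast panel, and the Sirt2 intervals are the widest of the 10 in all 3 panels.

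Among the sirtuins, Sirt6 and Sirt2 carried the called changes. Sirt6 is a nuclear enzyme that removes acetyl groups from histone H3 near promoters and telomeres. Its first listed promoter window, at chr10:81627517-81627816 of GRCm38.p6 on the minus strand, is shown beside that of Hdac2 because the pair moved in opposite directions in epiblast. None of the 3 motifs was found in it, and it had 20 CpG dinucleotides. A second Sirt6 start in RefSeq, not printed, had 1 GC box in its window.
Sirt6 promoter: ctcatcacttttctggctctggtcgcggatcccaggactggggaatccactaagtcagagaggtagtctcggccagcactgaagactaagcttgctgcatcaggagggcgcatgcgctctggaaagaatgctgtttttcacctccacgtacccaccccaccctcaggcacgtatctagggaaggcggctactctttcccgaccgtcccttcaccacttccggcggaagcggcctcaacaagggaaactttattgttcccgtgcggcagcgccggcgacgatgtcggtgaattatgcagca

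Sirt6 was at 5.76, 4.43 and 7.92 adjusted TPM in dICM, at 2.71 and 1.30 in epiblast and at 8.02, 15.2 and 10.2 in ICM. The 3 groups did not overlap, with ICM highest and epiblast lowest, the reverse of the Hdac2 order at its epiblast end. It fell in epiblast below ICM by a log2 fold change of -2.01 ± 0.34 (SE, limma adjusted p = 0.0031), and this call held under each of the 17 alternatives, the highest adjusted p without 1 library being 0.0388. It was higher in dICM than in epiblast by 1.24 ± 0.34 (adjusted p = 0.0225), a call that ended without epiblast replicate 2 (0.178), without dICM replicate 3 (0.064) and with no filter on low values (0.0797). That call also ended with the replicate number in the fit (adjusted p 0.0648). The log2 fold change in dICM against ICM was -0.77 ± 0.31, with an adjusted p of 0.138.

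Sirt2 is a mainly cytoplasmic enzyme that acts on tubulin and, in mitosis, on histone H4. It was at 11.2, 153 and 68.3 adjusted TPM in dICM, at 2.8e-11 and 1.59 in epiblast and at 20.2, 0.0698 and 10.1 in ICM. On the log2 scale its fold changes had the largest standard errors of the 10, and the dICM and ICM ranges overlapped. It was higher in dICM than in epiblast by 4.98 ± 1.32 on the log2 scale (SE, limma adjusted p = 0.0191). That call ended when either epiblast library (adjusted p 0.147 without replicate 1 and 0.0712 without replicate 2), dICM replicate 2 (0.0511) or dICM replicate 3 (0.0548) was left out, and with no filter on low values (0.109). It also ended with the replicate number in the fit (adjusted p 0.0646). The fold change of 3.01 ± 1.18 in dICM against ICM gave an adjusted p of 0.136, and that of -1.97 ± 1.32 in epiblast against ICM gave 0.289.

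The Sirt2 promoter window lies at chr7:28766502-28766801 of GRCm38.p6 on the plus strand and is shown because its gene had the largest span between group means of the 10. It held 1 GC box and 2 CCAAT boxes, in capitals, and 16 CpG dinucleotides.
Sirt2 promoter: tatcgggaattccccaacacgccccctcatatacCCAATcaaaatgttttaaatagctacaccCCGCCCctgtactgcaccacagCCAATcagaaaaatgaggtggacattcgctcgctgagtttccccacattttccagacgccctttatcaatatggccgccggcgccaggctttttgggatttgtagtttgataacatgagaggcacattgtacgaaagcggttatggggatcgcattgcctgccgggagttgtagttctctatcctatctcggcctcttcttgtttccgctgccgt
Sirt2 overlaps Nfkbib on the opposite strand in GENCODE vM21, and no source used here says whether the counting used strand. Nfkbib was at 6.68, 8.82 and 6.63 adjusted TPM in dICM, at 9.34 and 11.4 in epiblast and at 8.07, 5.12 and 10.4 in ICM. It did not show the spread of Sirt2, and it passed the test in no comparison. The part of shared reads in the Sirt2 values was not tested.

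Sirt1, the nuclear sirtuin that deacetylates p53 and Foxo proteins as well as histones, was at 9.19, 19.8 and 15.3 adjusted TPM in dICM, at 6.84 and 5.71 in epiblast and at 6.50, 6.91 and 16.2 in ICM. Every dICM library was above both epiblast libraries, and ICM replicate 3 reached the dICM range. The dICM to epiblast fold change of 1.06 ± 0.42 (SE, limma adjusted p = 0.0783) missed the threshold, and it passed without ICM replicate 3 (0.038) or without dICM replicate 1 (0.0426). The ratio of Sirt1 to Sirt6 within a library was 1.60 to 4.46 in dICM, 2.52 and 4.40 in epiblast and 0.455 to 1.59 in ICM. Both of the first groups lay above the ICM range, although the highest ICM value and the lowest dICM value were close.

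Sirt3, the main deacetylase of the mitochondrial matrix, was at 1.78, 1.1e-11 and 0.850 adjusted TPM in dICM, at 0.0552 and 0.317 in epiblast and at 0.254, 0.984 and 1.02 in ICM. Sirt7, a sirtuin of the nucleolus, was at 1.15, 0.0036 and 1.89 in dICM, at 0.717 and 0.420 in epiblast and at 0.520, 0.484 and 0.815 in ICM. Both genes ranged in dICM from near 0 to above every other library, and neither passed the test in any comparison. Their values near 0 in dICM replicate 2 stand beside detectable levels in the other dICM replicates, so no group level is read from them. Sirt3 reached 1 in 2 libraries, 1 of dICM and 1 of ICM, and Sirt7 in 2 dICM libraries, which is the least that the filter on low values admits. In GENCODE vM21 Sirt3 overlaps Psmd13 on the opposite strand and shares 416 bases with Ric8a, and Sirt7 overlaps Mafg on its own strand. Psmd13, at 75.0 to 131 adjusted TPM in dICM, 166 and 192 in epiblast and 225 to 347 in ICM, and Mafg, at 22.7 to 35.0 in dICM, 9.46 and 11.6 in epiblast and 21.2 to 48.9 in ICM, were both far above these sirtuins, and the part of shared reads in Sirt3 and Sirt7 was not tested.

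The 5 sirtuins together summed to 29.1 to 177 adjusted TPM in dICM, 9.33 and 10.3 in epiblast and 23.6 to 38.3 in ICM. Without Sirt2 the sum was 17.9 to 26.0 in dICM, 7.75 and 10.3 in epiblast and 15.3 to 28.3 in ICM. The spread of the dICM sum was thus the spread of Sirt2, and without that gene dICM and ICM overlapped while epiblast lay below both.

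The order of levels differed between the groups below the first place. In dICM the mean levels ran from Hdac2 through Sirt2, Hdac1, Sirt1, Hdac6, Sirt6, Hdac3, Hdac5 and Sirt7 to Sirt3. In that order only the steps from Hdac2 to Sirt2 and from Hdac1 to Sirt1 separated neighbours whose libraries did not overlap. In epiblast Hdac2 and Hdac1 were followed by Sirt1, Hdac3, Hdac6, Sirt6, Hdac5, Sirt2, Sirt7 and Sirt3, and neighbours overlapped from Sirt6 to Hdac5, from Hdac5 to Sirt2 and from Sirt2 to Sirt7. In ICM the order was Hdac2, Hdac1, Sirt6, Sirt2, Sirt1, Hdac6, Hdac3, Sirt3, Sirt7 and Hdac5, and neighbours overlapped from Sirt6 to Sirt2, from Sirt2 to Sirt1 and from Sirt3 to Sirt7. Against all genes tested, the group mean of Hdac2 exceeded 95.7% of genes in dICM, 99.6% in epiblast and 98.1% in ICM. Sirt6 exceeded 60.5%, 30.2% and 71.6% in the same groups, and Hdac5 exceeded 31.8%, 16.0% and 2.38%.

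Of the other 8 genes of the family, Hdac4, a class IIa relative of Hdac5, was the only gene that passed the filter on low values. It was at 1.66, 0.245 and 2.35 adjusted TPM in dICM, at 0.0705 and 0.582 in epiblast and at 1.77, 2.32 and 1.54 in ICM, and passed the test in no comparison, its smallest adjusted p being 0.0703 in epiblast against ICM. Hdac8 reached 2.73 in ICM replicate 3 and was under 1 in the other 7 libraries. Hdac7, Hdac9, Hdac10, Hdac11, Sirt4 and Sirt5 were under 1 in all 8. The class I enzymes Hdac1 and Hdac2 were thus the only genes of the 18 at 58.4 adjusted TPM or more in every library.

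The partners of Hdac1 and Hdac2 were read from lists of the Sin3, NuRD, CoREST and MiDAC complexes. Only genes whose call held under every alternative that tested them are named here and in the lists that follow. Of all genes tested, 16.7% were called higher and 13.3% lower in epiblast against ICM. The shares were 7.52% and 5.81% in dICM against ICM, and 16% and 18.6% in dICM against epiblast. Counts within lists are descriptions to be read beside those shares and were not tested against them. Of 16 Sin3 genes, 4 rose and 4 fell in epiblast against ICM (median log2 fold change -0.09), 2 rose and 1 fell in dICM against ICM (0.05), and 3 rose and 3 fell in dICM against epiblast (-0.20). With libraries rescaled by a trimmed mean the first split was 2 higher and 5 lower. Arid4b, a Sin3 subunit, was at 45.4 and 33.2 adjusted TPM in epiblast and at 12.4, 13.9 and 10.4 in ICM, a rise of 1.60 ± 0.24 (SE, limma adjusted p = 0.0018). Rbbp4, a histone chaperone shared by Sin3 and NuRD, was at 30.4, 22.2 and 31.3 in dICM, at 101 and 65.2 in epiblast and at 23.0, 22.3 and 29.2 in ICM. It rose in epiblast over ICM by 1.68 ± 0.28 (adjusted p = 0.003) and was lower in dICM than in epiblast by a log2 fold change of -1.52 ± 0.28 (adjusted p = 0.0041).

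Of 12 NuRD genes, which include Rbbp4, 3 rose and 1 fell in epiblast against ICM (median 0.26), 1 rose in dICM against ICM (0.29), and 3 rose and 2 fell in dICM against epiblast (0.29). Under the trimmed-mean rescaling the rises numbered 2, 2 and 4 in the same order. Cdk2ap1, a small NuRD subunit, was at 10.1, 5.85 and 8.98 adjusted TPM in dICM, at 116 and 62.0 in epiblast and at 15.7, 13.6 and 15.7 in ICM. It rose by 2.43 ± 0.32 in epiblast over ICM (SE, limma adjusted p = 0.00093) and was lower in dICM than in epiblast by a log2 fold change of -3.23 ± 0.32 (adjusted p = 0.00021). By its library values, the order of epiblast above ICM above dICM was that of Hdac2.

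Of 9 CoREST genes, 2 rose and 1 fell in epiblast against ICM (median -0.09), none passed in dICM against ICM (-0.03), and 2 rose and 3 fell in dICM against epiblast (0.16), a split that became 3 and 2 under the trimmed-mean rescaling. Rcor2, a CoREST scaffold, was at 3.63, 3.58 and 6.998 adjusted TPM in dICM and at 21.6 and 20.9 in epiblast, a log2 fold change of -2.01 ± 0.32 (SE, limma adjusted p = 0.002). Of 3 genes of MiDAC, a mitotic deacetylase complex, 2 rose in epiblast against ICM (median 0.94), 1 rose in dICM against ICM (-0.06) and 1 fell in dICM against epiblast (-0.32). The genes called reached 1 in no ICM library and entered the test only through groups where they were high. None of these calls held under every alternative. In epiblast against ICM 1 rose under either scaling, and in dICM against epiblast 0 fell under the trimmed-mean rescaling.

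Hdac3 works with NCoR and SMRT. Of their 5 genes, 1 rose and 1 fell in epiblast against ICM (median -0.60), a split that became 0 and 2 under the trimmed-mean rescaling and 1 and 2 under quantile normalization. None passed in dICM against ICM (0.62), and 2 rose in dICM against epiblast (0.18). Ncor1, the corepressor that activates Hdac3, was at 132, 124 and 138 adjusted TPM in dICM, at 44.5 and 50.1 in epiblast and at 125, 148 and 146 in ICM. It fell in epiblast below ICM by a log2 fold change of -1.54 ± 0.22 (SE, limma adjusted p = 0.0012) and was higher in dICM than in epiblast by 1.46 ± 0.22 (adjusted p = 0.0014). Epiblast thus stood apart from both other groups for Ncor1, while its catalytic partner Hdac3 passed in no comparison.

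The partners of class IIa enzymes, Mef2 factors, 14-3-3 proteins and the kinases that phosphorylate Hdac5, gave 14 genes tested. Of these 2 rose and 1 fell in epiblast against ICM (median -0.34), 1 rose and 4 fell in dICM against ICM (-0.53), and 2 rose and 2 fell in dICM against epiblast (-0.26), where the trimmed-mean rescaling left 2 and 1. Prkd3, a protein kinase D, was at 5.01, 3.49 and 3.46 adjusted TPM in dICM, at 4.72 and 6.03 in epiblast and at 0.376, 0.343 and 0.850 in ICM. It reached 1 in no ICM library and entered the test only through the groups where it was high, although its calls held with no filter too. Its log2 fold change was 1.71 ± 0.23 in dICM against ICM (SE, limma adjusted p = 0.0018) and 2.07 ± 0.26 in epiblast against ICM (adjusted p = 0.00067), and 2.78 and 3.22 with a pseudocount of 0.1. Ywhaq, a 14-3-3 protein, was at 15.1, 15.2 and 16.7 in dICM and at 135 and 99.5 in epiblast, a log2 fold change of -2.81 ± 0.25 (adjusted p = 0.00012). Sik1, a salt-inducible kinase, ran the other way, at 11.6, 12.7 and 7.29 in dICM and 1.29 and 1.05 in epiblast, a log2 fold change of 2.38 ± 0.29 (adjusted p = 0.00049).

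**Figure D4:**
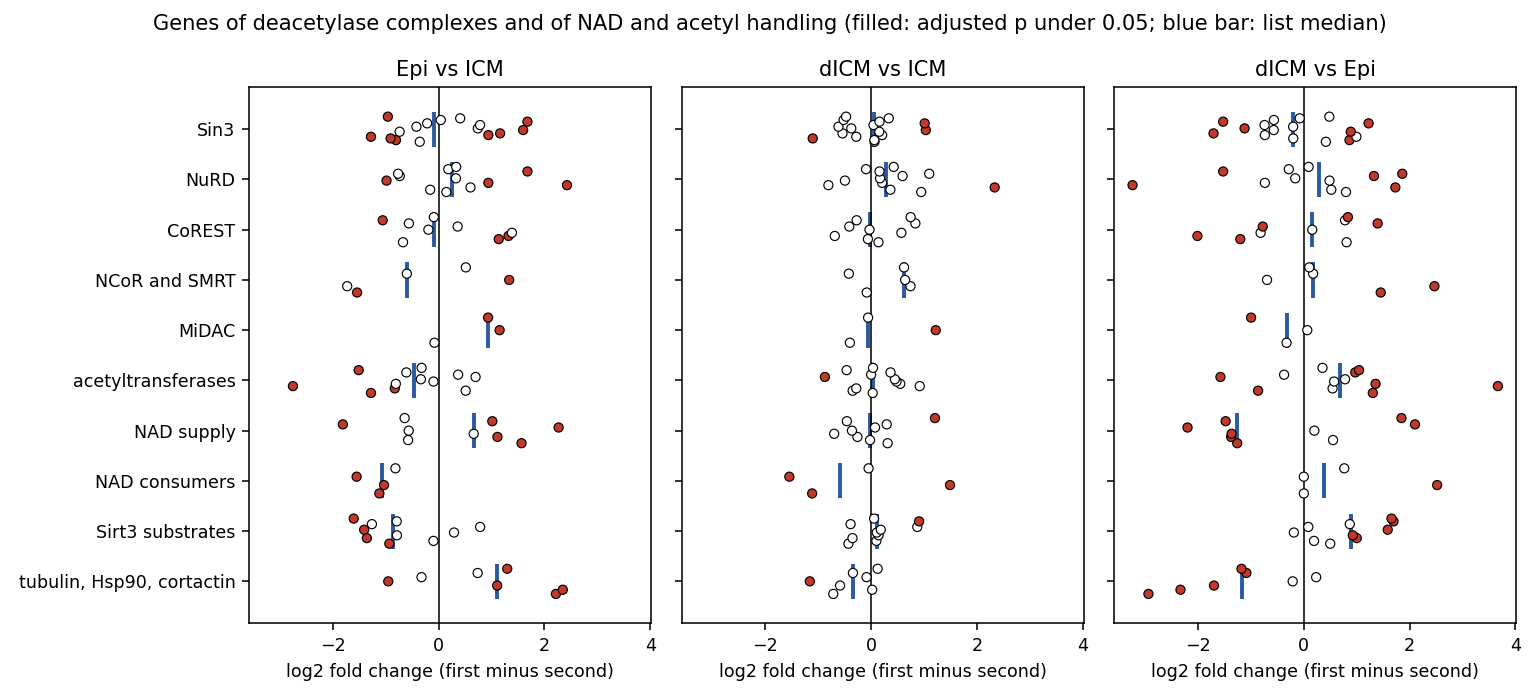
Log2 fold changes, on log2(adjusted TPM + 1), of the genes of 10 lists in epiblast against ICM, dICM against ICM and dICM against epiblast. Each point is a gene, filled where its limma adjusted p was under 0.05, and blue bars are list medians. The MiDAC, NAD supply and tubulin, Hsp90 and cortactin medians lie right in the epiblast against ICM panel and left in the dICM against epiblast panel. The medians of the Sirt3 substrates, acetyltransferases, NAD consumers, CoREST, and NCoR and SMRT do the opposite. Both panels share the epiblast libraries.

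The acetyltransferases place the marks that the deacetylases remove. Of 12 tested, none rose and 4 fell in epiblast against ICM (median -0.47), 1 fell in dICM against ICM (0.03), and 5 rose and 2 fell in dICM against epiblast (0.68), where the trimmed-mean rescaling left 5 and 1. Kat6b, a MYST-family histone H3 acetyltransferase, was at 92.1, 127 and 53.7 adjusted TPM in dICM, at 6.14 and 5.51 in epiblast and at 49.8, 65.6 and 27.5 in ICM. It fell in epiblast below ICM by a log2 fold change of -2.75 ± 0.43 (SE, limma adjusted p = 0.0021) and was higher in dICM than in epiblast by 3.67 ± 0.43 (adjusted p = 0.00043). Kat7, another MYST enzyme, fell in epiblast below ICM with a log2 fold change of -1.51 ± 0.22 (adjusted p = 0.0014). Hat1, which acetylates new histone H4 before its assembly into chromatin, was lower in dICM than in epiblast, as Hdac2 was, at 38.8, 57.4 and 48.6 in dICM and 161 and 128 in epiblast, a log2 fold change of -1.57 ± 0.27 (adjusted p = 0.0027).

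NAD is the co-substrate of the sirtuins, and 9 genes of its supply were tested. Of these 4 rose and 1 fell in epiblast against ICM (median 0.66), where the trimmed-mean rescaling gave 4 and 2, 1 rose in dICM against ICM (-0.02), and 2 rose and 5 fell in dICM against epiblast (-1.26). Qprt, which makes a NAD precursor from the kynurenine pathway, was at 0.00272, 0.265 and 0.126 adjusted TPM in dICM, at 3.26 and 5.24 in epiblast and at 0.0112, 0.207 and 0.00261 in ICM. It reached 1 only in the epiblast libraries and entered the test through them, although its calls held with no filter too. Its log2 fold change was 2.27 ± 0.30 in epiblast against ICM (SE, limma adjusted p = 0.00089) and -2.19 ± 0.30 in dICM against epiblast (adjusted p = 0.00089), and 4.80 and -4.38 with a pseudocount of 0.1. Slc25a51, the carrier that brings NAD into mitochondria, was at 44.5, 48.8 and 43.9 in dICM, at 12.5 and 11.5 in epiblast and at 21.7, 18.7 and 17.6 in ICM. It rose in dICM over ICM by 1.21 ± 0.19 (adjusted p = 0.0044) and over epiblast by 1.85 ± 0.21 (adjusted p = 0.00041). Nmrk1, a nicotinamide riboside kinase, was at 15.8, 15.5 and 8.96 in dICM and at 1.68 and 2.97 in epiblast, a log2 fold change of 2.10 ± 0.33 (adjusted p = 0.0018).

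Of 4 other genes that consume NAD or nicotinamide, 3 fell in epiblast against ICM (median -1.07), 1 rose and 2 fell in dICM against ICM (-0.58), and 1 rose in dICM against epiblast (0.39). The trimmed-mean rescaling gave 4 falls in the first comparison and 2 rises in the last. In each comparison with ICM, 1 fall was of a nicotinamide methyltransferase gene, which does not consume NAD. It reached 1 only in ICM libraries and entered the test through them. Cd38, an ectoenzyme that degrades NAD, was at 8.94, 11.3 and 10.3 adjusted TPM in dICM, at 0.888 and 0.990 in epiblast and at 3.64, 2.10 and 3.32 in ICM. It rose in dICM over ICM by 1.49 ± 0.22 (SE, limma adjusted p = 0.0027) and over epiblast by 2.52 ± 0.24 (adjusted p = 0.00018). Cd38 is also a surface protein of blood cells, and Cd68 and Laptm5 were higher in dICM too. In the same 3 dICM libraries Cd68 was at 80.6, 29.6 and 25.3 and Laptm5 at 53.2, 20.8 and 21.5. The library highest in both was thus the lowest in Cd38, and Ptprc, Tyrobp and Lyz2 were under 1 in every library. The part of blood cells in the Cd38 values was not tested. Parp1, which consumes NAD at DNA breaks, was at 21.2, 28.2 and 24.9 in dICM and at 48.2, 56.8 and 59.0 in ICM, a log2 fold change of -1.11 ± 0.21 (adjusted p = 0.0094).

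**Figure D5:**
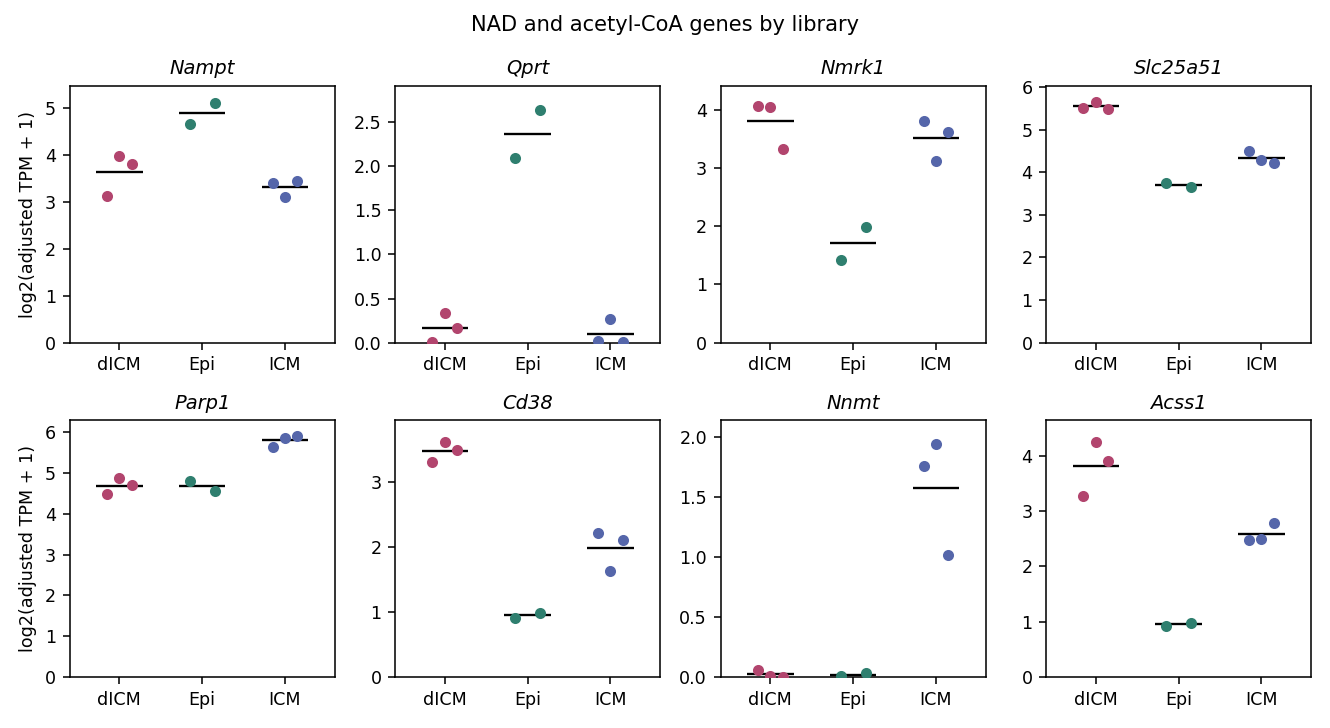
Levels of 8 genes of NAD and acetyl-CoA handling in every library, on log2(adjusted TPM + 1), with dICM, Epi and ICM from left to right and black bars at group means. Slc25a51, Cd38 and Acss1 are highest in all dICM libraries, Qprt is above 3 adjusted TPM only in the 2 Epi libraries, and Parp1 is highest in ICM.

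Of 6 genes of acetyl-CoA supply, 1 fell in epiblast against ICM (median -0.14), 1 rose in dICM against ICM (0.16) and 1 rose in dICM against epiblast (0.26). Acss1, the mitochondrial acetyl-CoA synthetase that Sirt3 is known to activate, was at 8.66, 18.0 and 14.0 adjusted TPM in dICM, at 0.902 and 0.980 in epiblast and at 4.56, 4.62 and 5.91 in ICM. It was lower in epiblast than in ICM by a log2 fold change of -1.63 ± 0.30 (SE, limma adjusted p = 0.0044) and higher in dICM than in epiblast by 2.85 ± 0.30 (adjusted p = 0.00025).

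The protein substrates of the members were read at the transcript level, which says nothing of their acetylation. Of 10 Sirt3 substrates, mostly mitochondrial, 4 fell in epiblast against ICM (median -0.86), 1 rose in dICM against ICM (0.10) and 5 rose in dICM against epiblast (0.90). Of all genes tested, 13.3% were called lower in the first comparison and 16% higher in the last. The falls in the first comparison numbered 6 under the trimmed-mean rescaling and 3 under quantile normalization. Sod2, the mitochondrial superoxide dismutase, was at 8.73 and 8.76 adjusted TPM in epiblast and at 20.5, 22.1 and 30.1 in ICM, a log2 fold change of -1.36 ± 0.24 (SE, limma adjusted p = 0.0037). Idh2, an isocitrate dehydrogenase, was at 31.9, 40.5 and 58.7 in dICM and at 12.9 and 11.9 in epiblast, a log2 fold change of 1.70 ± 0.28 (adjusted p = 0.0024). Glud1, glutamate dehydrogenase, was at 235, 198 and 292 in dICM and at 94.6 and 65.5 in epiblast, a log2 fold change of 1.59 ± 0.27 (adjusted p = 0.0026).

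The list of cytoplasmic substrates of Hdac6 and Sirt2 held 4 alpha-tubulin genes, 2 Hsp90 genes and Cttn. Of the 7, 4 rose and 1 fell in epiblast against ICM (median 1.11), 1 fell in dICM against ICM (-0.34) and 5 fell in dICM against epiblast (-1.17). Quantile normalization gave 3 rises in the first comparison and 2 falls in the second, and the trimmed-mean rescaling gave 4 falls in the last. Tuba1b was at 875, 547 and 966 adjusted TPM in dICM, at 3959 and 3815 in epiblast and at 892, 517 and 964 in ICM. It rose in epiblast over ICM by 2.35 ± 0.34 (SE, limma adjusted p = 0.0014), and dICM was lower than epiblast by a log2 fold change of -2.33 ± 0.34 (adjusted p = 0.0012). Hsp90aa1 was at 384, 469 and 516 in dICM and at 4385 and 2735 in epiblast, a log2 fold change of -2.93 ± 0.36 (adjusted p = 0.00053). Tubulin genes are near-identical in sequence, so their single rows are uncertain.

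Of 7 genes that regulate sirtuins or are regulated by them, 1 rose and 1 fell in epiblast against ICM (median 0.13), a split of 0 and 1 under the trimmed-mean rescaling. None passed in dICM against ICM (0.29), and 1 rose in dICM against epiblast (-0.02). Foxo3, a transcription factor that Sirt1 deacetylates and that is also among the Sirt3 substrates counted above, was at 11.1, 8.48 and 9.22 adjusted TPM in dICM, at 2.67 and 2.04 in epiblast and at 9.30, 8.56 and 9.59 in ICM. It fell in epiblast below ICM by a log2 fold change of -1.60 ± 0.22 (SE, limma adjusted p = 0.001) and was higher in dICM than in epiblast by 1.66 ± 0.22 (adjusted p = 0.00074).

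The genes whose pattern was most like a member's were listed for the 3 members with the largest span between group means, by Pearson correlation of log2(adjusted TPM + 1) over the 8 libraries. The libraries fall into 3 groups, so a high correlation mostly says that group means run in the same order. For Hdac2 the 5 genes were Hnrnpc (r = 0.990), Lsm6 (0.989), Ran (0.985), Hnrnpd (0.984) and Srsf1 (0.984). For Sirt6 they were Atg14 (0.973), Fancm (0.970), Map7 (0.966), Capn1 (0.965) and Letm1 (0.965). For Sirt2 they were Itgb1bp1 (0.976), Tirap (0.968), Rps29 (0.966), Rad9b (0.958) and n-R5s69 (0.950). Itgb1bp1 shared the replicate spread of Sirt2, at 6.09, 28.1 and 14.2 adjusted TPM in dICM, 3.01 and 3.41 in epiblast and 10.6, 1.81 and 8.69 in ICM, with its highest value also in dICM replicate 2 and its lowest ICM value also in replicate 2.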

How the data were processed

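The 8 RNA-seq libraries came from pools of about 50 embryos, amplified before library preparation. The authors deposited, for each gene and library, a signal named adjusted TPM. No source used here says how it was adjusted. Because its library sums ran from 720674 to 1179026, it was treated as a signal and not as the TPM assumed when the tests were fixed. The test planned for TPM was kept. The submitters' processing notes name Bowtie 0.12.5, DESeq and mm9, with no role. Sequencing depth is unknown, so no counting error is given, and strand use is not given.

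Genes at 1 or more in at least 2 libraries were tested (17698 of 38924). For repeated symbols the row of highest mean was used. limma 3.58.1 in R 4.3.3 fitted log2(value + 1) in all 8 libraries with a mean per group and a trend of the prior variance. The 3 contrasts were tested two-sided, with Benjamini-Hochberg adjustment over all genes and a threshold of 0.05. The script was tested on simulated data. Copies were sought in GENCODE vM21 transcripts at 90% identity or more over at least 300 bases. Promoter windows and their motifs were read from RefSeq tables (GRCm38.p6), which held 8 of the 10 genes. No value is placed on that build.

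The members and lists were chosen with earlier results of these data known. All 10 members are named, the family's other genes are given by value, and other lists by counts and at most the 3 called genes of smallest adjusted p per comparison. Alternatives were another pseudocount, filters, scalings, groups in the fit, a replicate block, the prior's trend, summed symbols and each library left out.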

Additional observations from a re-analysis of the deposited data

How the results depend on the processing

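Of 498 recomputed results, 446 kept their direction and their side of the threshold. Genes called by limma in epiblast against ICM numbered 5324, 2963 higher and 2361 lower, and 2081 higher and 2715 lower after the trimmed-mean rescaling, which moved the median by -0.14. In dICM against epiblast the 6113 calls were 2830 higher and 3283 lower, and 3237 and 2269 after that rescaling, which moved the median by 0.16. In dICM against ICM 2360 genes were called, and 1278 with no filter on low values. With 1 library left out, calls ranged from 2008 (without epiblast replicate 1) to 5205 in epiblast against ICM, with 2843 without epiblast replicate 2. They ranged from 1402 (without ICM replicate 1) to 2141 in dICM against ICM, with 1571 without ICM replicate 3, and from 2698 (without epiblast replicate 1) to 6315 in dICM against epiblast, with 3367 without epiblast replicate 2. Without epiblast replicate 2 the epiblast to ICM log2 fold changes were 1.78 for Hdac2, 1.345 for Hdac5 and -1.67 for Sirt6, from 1 epiblast library. In the fits with 1 library left out, Hdac2 and Sirt6 alone of the 10 genes passed in epiblast against ICM wherever both epiblast libraries were kept. In dICM against ICM 0 to 2 passed, 2 with a pseudocount of 0.1, 0 with no filter, 2 with a filter at 5, 3 with quantile normalization and 2 with only the 2 groups compared, where Hdac5 was joined or replaced by Hdac1 or Hdac2. In dICM against epiblast 2 to 5 passed, and 1, Hdac2, with no filter. Whether the replicate numbers pair the libraries was not settled. Same-numbered deviations correlated at 0.0175, 0.103 and 0.131 between ICM and dICM, and differently numbered ones at -0.148 to 0.033. The same-numbered pairs with epiblast were at -0.0645 to 0.0333. Deviations within a group are tied to each other by the shared mean, and those of the 2 epiblast libraries mirror each other. With a replicate block 2 passed in dICM against epiblast, as Sirt2 (adjusted p = 0.0646) and Sirt6 (0.0648) did not. Directions that turned belonged to uncalled genes and their cause was not tested. In epiblast against ICM the block gave Hdac6 0.17 and Sirt7 0.17, and leaving out libraries gave -0.043 to 0.011 for Hdac6, -0.17 to 0.10 for Sirt7 and -0.22 to 0.59 for Hdac1, whose sum with its copy gave -0.019. In dICM against ICM Sirt3 was at -0.42 with a pseudocount of 0.1, -0.054 with quantile normalization and -0.33 to 0.41 with libraries left out, Sirt7 at -0.12 and -0.12 to 0.64, and Hdac3 at -0.10 to 0.72. In dICM against epiblast Sirt7 was at -0.034 with that pseudocount and -0.087 to 0.67 with libraries left out, and Hdac3 at -0.63 to 0.19. Counts within the gene lists were recomputed under the scalings only.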
